A study of Mus musculus with 8 samples.

Results

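The 9 genes described here encode transcription factors of the macrophage lineage, namely Maf, Spi1, Cebpa, Cebpb, Irf8, Zeb2, Klf2, Klf4 and Runx1. They were taken by gene symbol from a count table of 24516 genes, and all 9 were found there. The table holds RNA counts of 8 libraries from sorted cardiac tissue macrophages of C57BL/6 mouse hearts at postnatal day 28. Of these, 4 libraries are of macrophages derived from the endocardium, called EcTM, and 4 are of cardiac macrophages not derived from it, called non-EcTM. By their titles E591, E592, E604 and E606 are EcTM and N591, N592, N604 and N606 are non-EcTM, so that each EcTM library shares its number with a non-EcTM library. All 8 libraries share the genotype Nfatc1Cre/+; Rosa26Tomato reporter/+. Nfatc1 is active in the endocardium, so in such mice Cre switches on the red reporter in endocardial cells and their descendants. A cell that turned on Nfatc1 in another lineage would carry the reporter as well. The sorting gates, and whether a number stands for 1 animal, a litter or a pool, are not stated in the labels. In the main test, which fits the number, the p-values therefore measure how the difference between EcTM and non-EcTM varied between numbers. Where the number is not fitted, they measure the spread between libraries of a group. Either spread may be technical.

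Macrophages are specified by a small circuit of DNA-binding proteins. PU.1, the product of Spi1, opens myeloid enhancers together with C/EBP and RUNX factors, and IRF8, ZEB2 and KLF4 act in the steps that lead through monocytes. In mature cells c-MAF restrains division and switches on genes of resident macrophages, and KLF2 and KLF4 temper inflammatory activation. In the embryo RUNX1 is also needed for endothelium to give rise to blood cells.

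None of the 9 factors passed the test between EcTM and non-EcTM. Klf2, Klf4, Maf and Spi1 were well counted, and their fold changes of EcTM over non-EcTM lay between 0.97 and 1.07. Irf8 and Zeb2 were near the limit of the counts, and the intervals of their folds reached from 0.279 to 1.63 and from 0.157 to 1.98. Cebpa, Cebpb and Runx1 were listed at 0 in all 8 libraries. Thus 6 of the 9 genes passed the filter on low counts and were tested.

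Counts are given below as CPM, the count per 1000000 counts of the library after scaling. Fold changes are from edgeR's quasi-likelihood test with the library number as a replicate block, adjusted by Benjamini-Hochberg over the 7667 genes tested. At an adjusted p under 0.05 the test called 0 of the 6 factors, against 0.013% of all genes tested, which is 1 gene, Itga9. At an unadjusted p under 0.05 there were 0 of the 6, against 5.4% of all genes. The EcTM and non-EcTM libraries did not overlap for 0 of the 6 factors, against 2.7% of all genes. None of the 6 went one way in all 4 number pairs, as 14.1% of all genes did. With 6 genes, counts of 0 are near these backgrounds. The same comparison in DESeq2 and in limma-voom, both with the replicate block, also called 0 of the 6. Paired DESeq2 gave Irf8 and Zeb2 no adjusted p, so they could not be called there. Each tool gave 1 factor, Klf2, at an unadjusted p under 0.05. The median log2 fold change was -0.04 over the 6 factors and -0.01 over all genes tested.

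Library totals were 2152425 to 2576407 counts in EcTM and 2281657 to 2937464 in non-EcTM, so that the 3 counts taken as the floor correspond to 0.99 to 1.43 CPM. Macrophage markers were all present, with 12 of 12 counted and a summed level of 25351 to 26149 CPM in EcTM, against 23519.9 to 25381 CPM in non-EcTM, higher in EcTM in 4 of 4 pairs. Endothelial markers summed to 42.5 to 412 CPM in EcTM, against 109 to 1103 CPM in non-EcTM, higher in EcTM in 1 of 4 pairs, with 7 of 11 counted and Pecam1, Tek, Emcn and Esam at 0. Monocyte markers summed to 21.3 to 224 CPM in EcTM, against 43.9 to 204 CPM in non-EcTM, with 5 of 7 counted and Vcan among those at 0. Both tested monocyte markers lay below 0, Ccr2 at a log2 fold change of -0.56 (unadjusted p 0.0292, adjusted 0.897) and F13a1 at -0.86 (unadjusted p 0.149). Dendritic cell markers summed to 9.87 to 23.7 CPM in EcTM, against 11.9 to 23.1 CPM in non-EcTM, with 5 of 7 counted and Clec9a and Ccr7 at 0. Cardiomyocyte markers summed to 28.5 to 66.2 CPM in EcTM, against 33.3 to 69.9 CPM in non-EcTM, and were lower in EcTM in 4 of 4 pairs, with 4 of 6 counted and Myh6 and Tnnt2 at 0. Mural cell markers summed to 51.4 to 67.2 CPM in EcTM, against 28.2 to 207 CPM in non-EcTM, with 4 of 6 counted and Pdgfrb and Myh11 at 0. Fibroblast markers summed to 24.5 to 126 CPM in EcTM, against 22.3 to 188 CPM in non-EcTM, with 6 of 7 counted and Pdgfra at 0. The part of these cell types in the values below was not tested. Neutrophil, lymphocyte and mast cell markers summed to at most 6.71 CPM in EcTM, against 5.61 CPM in non-EcTM. Of these, 3 of 6, 5 of 6 and 0 of 3 were counted, with S100a9, Ly6g, Camp and Nkg7 among those at 0. In bulk libraries such as these, fewer cells of a type and less RNA per cell cannot be told apart. The pair E592 and N592 carried Y-linked Ddx3y (260 to 307 counts) and almost no Xist (1 to 8 counts), and the other pairs had 1 to 7 counts of Ddx3y and 935 to 1682 of Xist, so that these sex-linked genes split the libraries by number.

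The promoters of Klf4 and Klf2 are shown because this related pair held most of the counts of all 9 factors, with 67.4 to 76.1% in EcTM and 65.9 to 76.6% in non-EcTM. KLF proteins bind CACCC boxes and GC-rich elements, so these were searched, with the TATA element as a landmark. Each window runs from 250 bases before to 50 bases after the RefSeq start, on the gene's own strand, in GRCm38.p6 (chr4:55532426-55532725, minus strand, for Klf4 and chr8:72318812-72319111, plus strand, for Klf2). Capitals mark CACCC, the GC box GGGCGG and TATAA, found on either strand.
Klf4: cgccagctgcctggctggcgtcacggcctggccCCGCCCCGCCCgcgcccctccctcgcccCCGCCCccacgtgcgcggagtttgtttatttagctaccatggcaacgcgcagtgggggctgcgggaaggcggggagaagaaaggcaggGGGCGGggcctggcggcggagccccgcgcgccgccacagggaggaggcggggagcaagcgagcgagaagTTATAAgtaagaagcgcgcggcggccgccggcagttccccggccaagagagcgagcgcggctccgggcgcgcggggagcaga
Klf2: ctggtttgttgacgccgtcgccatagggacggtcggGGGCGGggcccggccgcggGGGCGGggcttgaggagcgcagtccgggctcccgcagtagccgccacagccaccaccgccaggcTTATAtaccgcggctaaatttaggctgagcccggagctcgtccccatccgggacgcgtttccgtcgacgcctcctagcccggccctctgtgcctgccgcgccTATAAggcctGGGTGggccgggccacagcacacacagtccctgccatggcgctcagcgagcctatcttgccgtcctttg
The Klf4 window holds 4 GC boxes, of which 2 overlap, no CACCC box and 2 overlapping TATAA matches on opposite strands. The Klf2 window holds 2 GC boxes, 1 CACCC box read on the opposite strand and 2 TATAA matches. Among 32851 mouse promoters of the same length, 35.7% hold a GC box, 57.5% a CACCC box and 24.9% TATAA. A match is a run of letters and not a bound site. No library here measured binding.

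The factors that set up the myeloid programme come first. Spi1 (Entrez 20375; chr2:91082374-91115759, plus strand) encodes PU.1, the ETS-family factor on which macrophage development depends. Its level was 366, 494, 431 and 412 CPM in E591, E592, E604 and E606, against 439, 429, 458 and 419.9 CPM in N591, N592, N604 and N606. The EcTM libraries held both the highest and the lowest value, and the groups overlapped fully. Spi1 averaged 426 ± 53.2 CPM in EcTM, against 437 ± 16.5 CPM in non-EcTM (SD, n = 4 each). The log2 fold change was -0.04 ± 0.094 (SE), with a 95% interval of -0.24 to 0.15 and an adjusted p of 0.99. Spi1 was higher in EcTM in 1 of 4 pairs, E592 and N592, with log2 ratios of -0.26 to 0.20. Without E591 and N591 its log2 fold change was 0.03, the opposite sign.

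Cebpa (Entrez 12606), whose product directs progenitors into the granulocyte and monocyte lineages, had no count in any library. Cebpb (Entrez 12608), which encodes a factor induced in activated macrophages, had none either. The same was true of Runx1 (Entrez 12394), the RUNX gene of blood stem cell emergence. They lie at chr7:35119293-35121928, chr2:167688915-167690432 and chr16:92601466-92826074. A count of 0 allows up to 3 counts, 0.99 to 1.43 CPM, for counting error only. No fold is given for these 3 genes, and the authors' deposited log2 values for them are 0 in every library too.

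These zeros went with how many transcripts a gene has in the annotation. The 3 genes have 5, 3 and 4 curated RefSeq transcripts, and the 3 most abundant of the counted factors per kilobase, Klf2, Klf4 and Maf, have 1 each. Over 99 transcription factor genes, namely the 9 and their listed relatives and other regulators, 1 of 37 genes with 1 curated transcript was at 0 in all libraries (2.7%). Among those with 2 it was 4 of 23 (17.4%), and among those with 3 or more 15 of 39 (38.5%). The median total over 8 libraries was 1930, 41 and 13 counts in these 3 classes. Over all genes in the table the shares at 0 were 42.5, 40.6 and 38.6%, without that slope. Over protein-coding genes they were 36.6, 39.2 and 38.2%, also without it. The median totals were 5, 6 and 6 counts over all genes. Over protein-coding genes they were 18, 7 and 7 counts, highest with 1 transcript. Other regulators at 0 in these sorted macrophages included Stat3, Hif1a, Ikzf1, Irf7 and Cbfb. A 0 in this table does not show that a gene was silent, and whether such zeros are failed counts was not tested. Among overlapping genes, Tmem189 on the strand opposite Cebpb had 2169 counts in all. The part of the counting in the low values of Irf8 and Zeb2, with 2 and 7 curated transcripts, was not tested.

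**Figure D1:**
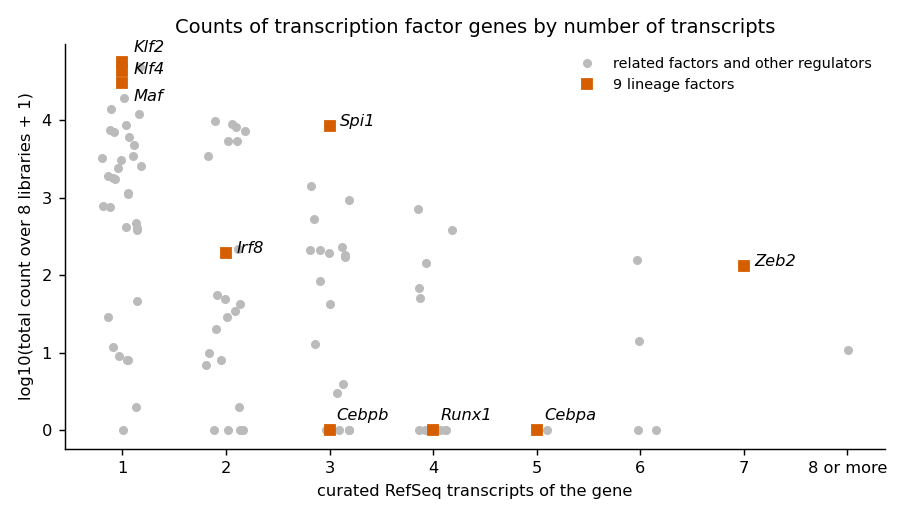
The total count over 8 libraries, as log10 of the count plus 1, is plotted against the number of curated RefSeq transcripts for 99 transcription factor genes, with the 9 lineage factors as orange squares. Klf2, Klf4 and Maf sit at the top with 1 transcript each, Spi1 is high with 3, and Cebpb, Runx1 and Cebpa lie on the zero line with 3, 4 and 5.

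Irf8 and Zeb2 act at the fork between monocytes, dendritic cells and neutrophils. Irf8 (Entrez 15900; chr8:120736358-120756694, plus strand) encodes a factor that favours monocytes and dendritic cells over neutrophils. It had 11, 6, 40 and 20 counts in EcTM and 32, 11, 28 and 45 counts in non-EcTM, in the same order of libraries. That is 5.24, 2.68, 17.5 and 7.90 CPM in EcTM, against 12.7, 4.31, 12.2 and 14.9 CPM in non-EcTM. E604 was the highest of all 8, and the other 3 pairs had the lower value in EcTM. The lowest count of 6 has an exact Poisson 95% interval of 2.20 to 13.1, and the highest count, 45, one of 32.8 to 60.2. Irf8 averaged 8.34 ± 6.49 CPM in EcTM, against 11.0 ± 4.62 CPM in non-EcTM (SD, n = 4 each), with a log2 fold change of -0.57 ± 0.62 (SE), a 95% interval of -1.84 to 0.71 and an adjusted p of 0.973. A change of 2-fold in the lower direction lies inside this interval and could not be detected with these counts. The annotated gene Gm20388 overlaps Irf8 on the same strand and is not in the count table. Whether any of its reads were counted for Irf8 was not tested.

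Zeb2 (Entrez 24136; chr2:44983512-45117442, minus strand) encodes a zinc finger repressor that works in monocyte differentiation and keeps the tissue identity of resident macrophages. It had 14, 6, 3 and 22 counts in EcTM and 6, 22, 29 and 30 counts in non-EcTM. In CPM these were 6.67, 2.68, 1.32 and 8.69 in EcTM and 2.38, 8.61, 12.6 and 9.90 in non-EcTM. Both groups spanned a wide range and overlapped, and E591 over N591 went the opposite way to the other 3 pairs. The widest gap was between E604, with 3 counts (exact Poisson 95% interval 0.619 to 8.77), and N604, with 29 (19.4 to 41.6). The log2 ratio of their CPM was -3.27. Zeb2 averaged 4.84 ± 3.43 CPM in EcTM, against 8.39 ± 4.34 CPM in non-EcTM (SD, n = 4 each), with a log2 fold change of -0.84 ± 0.89 (SE), a 95% interval of -2.67 to 0.99 and an adjusted p of 0.968. Over the settings tried, its log2 fold change ran between -1.56 and -0.15. It was -1.56 without E591 and N591 and -0.15 without E604 and N604. An antisense gene, Zeb2os, overlaps it and had 102 counts in all. Whether reads were counted by strand is not stated, so the counts of these genes cannot be told apart.

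Klf4 (Entrez 16600; chr4:55527137-55532475, minus strand) encodes a zinc finger factor that drives monocyte differentiation and the alternative activation of macrophages. Its level was 2355, 2435, 1824.5 and 2104 CPM in EcTM, and 2455, 2839.9, 1706 and 2009 CPM in non-EcTM. The libraries sorted by number more than by cell group, with E592 and N592 highest and E604 and N604 lowest in their groups. Klf4 averaged 2179.7 ± 276 CPM in EcTM, against 2253 ± 498 CPM in non-EcTM (SD, n = 4 each). The log2 fold change was -0.03 ± 0.059 (SE), with a 95% interval of -0.15 to 0.09 and an adjusted p of 0.99, and 2 of 4 pairs were higher in EcTM. Without E592 and N592 it was 0.04, the opposite sign.

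Klf2 (Entrez 16598; chr8:72319062-72321654, plus strand), known as a shear stress factor of endothelium and a brake on myeloid activation, was the most abundant of the 6 counted factors per kilobase of exon. Its level was 3855, 2737, 2560.1 and 2655 CPM in EcTM, against 3602, 2787, 2306 and 2405 CPM in non-EcTM. E591 and N591 were the highest of their groups, and 3 of 4 pairs were higher in EcTM. Klf2 averaged 2952 ± 607 CPM in EcTM, against 2775 ± 589 CPM in non-EcTM (SD, n = 4 each). Its log2 fold change was 0.09 ± 0.051 (SE), with a 95% interval of -0.01 to 0.20, an unadjusted p of 0.0861 and an adjusted p of 0.931. Among the 6 factors this was the smallest p. The unadjusted p was 0.0446 in paired DESeq2 (adjusted 0.535), 0.0164 in limma-voom (adjusted 0.659) and 0.0281 in edgeR without E592 and N592 (adjusted 0.981). With no replicate block it was 0.541 in edgeR. The immediate-early genes, which rise within minutes of stress or stimulation, were also highest in E591 and N591, with summed levels of 64999 and 60421 CPM, and were higher in EcTM in 4 of 4 pairs (51758 to 64999 CPM in EcTM, 48418 to 60421 CPM in non-EcTM). Of that list 17 of 18 genes were counted and Jund was at 0. Summed endothelial markers were highest in E591 and N591 too, at 412 and 1103 CPM. Of the 6 tested, 3 were lower in EcTM at an unadjusted p under 0.05, against 5.4% of all genes in both directions, with 0 called. Without E591 and N591 the log2 fold change of Klf2 was 0.09 as well. The part of immediate-early and endothelial genes in the values of Klf2 was not tested.

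The balance of the Klf2 and Klf4 pair was also compared. The CPM ratio of Klf2 to Klf4 was 1.64, 1.12, 1.40 and 1.26 in EcTM and 1.47, 0.981, 1.35 and 1.20 in non-EcTM. All 4 pairs were higher in EcTM, but the number moved it more than the group did. On the log2 scale it averaged 0.43 ± 0.23 in EcTM and 0.30 ± 0.25 in non-EcTM (SD, n = 4 each), which differ by 0.12; the exact permutation p within pairs, two-sided, was 0.125, the smallest that 4 pairs can give. Without pairing it was 0.514, where the smallest p possible is 0.0286. This ratio was chosen after its values were seen.

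Maf (Entrez 17132; chr8:115703253-115706894, minus strand) encodes c-MAF, a basic leucine zipper factor of resident macrophages. Its level was 1575, 1638, 1672 and 1442 CPM in EcTM, against 1394, 1515, 1591 and 1574 CPM in non-EcTM. All 8 libraries lay within 1.20-fold of each other, the narrowest range of the 6 tested factors. Maf averaged 1582 ± 101 CPM in EcTM, against 1519 ± 89.0 CPM in non-EcTM (SD, n = 4 each). The log2 fold change was 0.06 ± 0.063 (SE), with a 95% interval of -0.07 to 0.19 and an adjusted p of 0.972, and 3 of 4 pairs were higher in EcTM. An antisense gene, Gm15655, overlaps Maf and, unlike Zeb2os, is not in the count table. Whether any of its reads were counted for Maf was not tested.

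**Figure D2:**
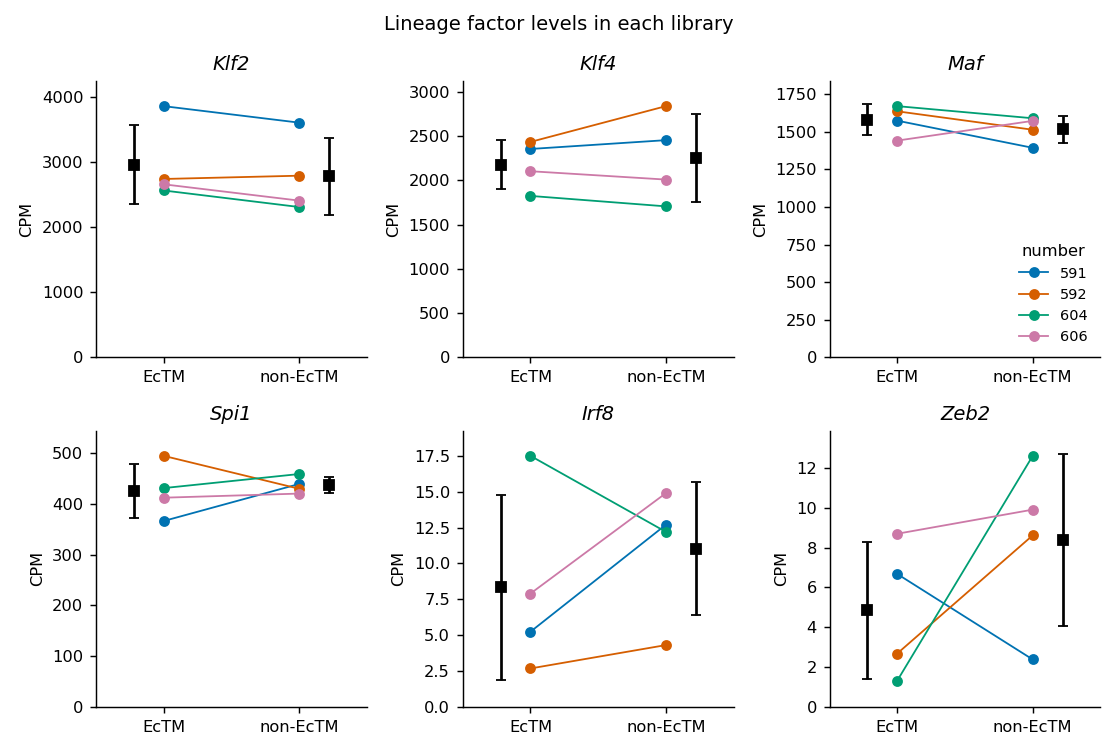
Each panel plots the CPM of 1 lineage factor in every library, EcTM left and non-EcTM right, with lines that join libraries of 1 number and black squares with bars for the group mean and SD (n = 4). The groups overlap in all 6 panels, and lines of Klf2 and Klf4 keep the same order of numbers on both sides.

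The size of the change that these libraries could show differed by gene. For Klf2, Klf4, Maf and Spi1 the 95% interval of the fold of EcTM over non-EcTM was 0.99 to 1.15, 0.901 to 1.07, 0.951 to 1.14 and 0.849 to 1.11. For these 4 genes, changes of 1.2-fold or more in either direction lie outside the intervals. The median SE over all genes tested was 0.30 on the log2 scale, and it was 0.09 over 702 genes at a mean log2 CPM of 8 or more. The SEs of these 4 genes, 0.051 to 0.094, are those of well-counted genes.

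**Figure D3:**
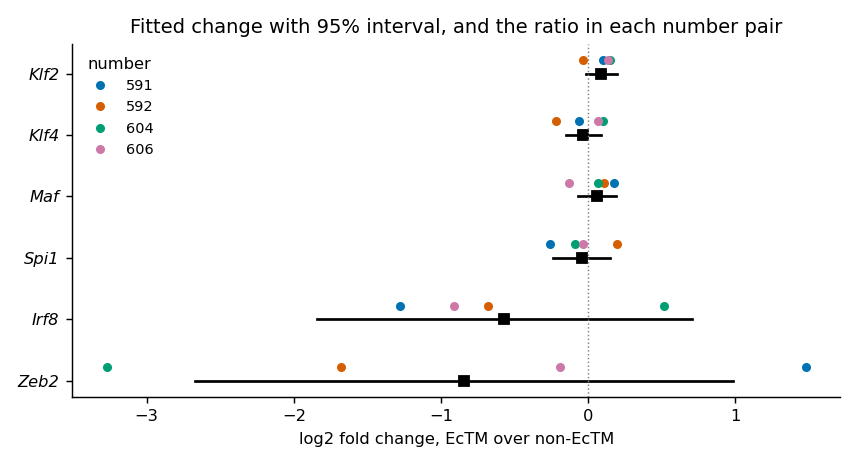
The fitted log2 fold change of EcTM over non-EcTM is drawn for the 6 tested factors as a black square with its 95% interval, and the log2 ratio of each number pair as a coloured point. The intervals of Klf2, Klf4, Maf and Spi1 lie within -0.24 to 0.20, and those of Irf8 and Zeb2 span -1.84 to 0.71 and -2.67 to 0.99.

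The factors differed in how they varied among libraries. For Klf2 and Klf4 the SD between the 4 numbers was 0.28 and 0.25 in log2 CPM, and the SD of the pair ratios was 0.08 and 0.14. For Maf and Spi1 the SD between numbers was 0.06 and 0.09, and that of the pair ratios 0.13 and 0.19. If libraries of 1 number were no more alike than others, the SD of the pair ratios would be about 2 times that between numbers, as it was for Maf and Spi1, and for Klf2 and Klf4 it was smaller. For Irf8 the SD between numbers was 0.91 and that of the pair ratios 0.78, also under 2 times, though on low counts. Zeb2 had 0.57 and 2.03, the largest spread of pair ratios. The highest library exceeded the lowest 1.67-fold for Klf2, 1.66-fold for Klf4, 1.35-fold for Spi1, 6.54-fold for Irf8 and 9.61-fold for Zeb2.

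Levels were compared between genes per kilobase of exonic length. Klf2 came first with 1625 ± 334 CPM per kb in EcTM and 1528 ± 324 CPM per kb in non-EcTM (SD, n = 4 each). It was followed by Klf4 with 719.6 ± 91.0 and 744 ± 164, Maf with 434 ± 27.8 and 417 ± 24.4, and Spi1 with 209 ± 26.1 and 215 ± 8.1, in EcTM and non-EcTM. The ranges of these 4 genes over the 8 libraries did not overlap, at 1269.9 to 2123, 563 to 938, 383 to 459 and 179.9 to 243 CPM per kb. Irf8 and Zeb2 had 0.942 to 6.16 and 0.234 to 2.25 CPM per kb, and these neighbours overlapped. Among the listed transcription factors low counts went with several transcripts, which was not seen over all genes in the table. Over protein-coding genes it was seen in the median totals only. Whether the number of transcripts had a part in the places of Spi1, Irf8 and Zeb2 was not tested. Their places in this order are given for the table only.

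The gene whose log2 CPM over the 8 libraries was most like that of each factor was looked up among 3807 genes whose mean log2 CPM was 5 or more, as a description. It was Jun for Klf2 (Pearson r 0.979), Lyz2 for Klf4 (0.98), Eif3i for Maf (0.957), Rnf180 for Spi1 (0.949), Mcm7 for Irf8 (0.954) and Vps13a for Zeb2 (0.896). The best of 3807 genes is high by selection, and libraries of 1 number are not independent.

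Relatives of the 9 factors, other macrophage regulators and known target genes, 115 in all, were read from lists in the same test. Of these, 67 passed the filter on low counts and 0 were called over all genes. At an unadjusted p under 0.05 there were 10 of the 67 (14.9%), of which 9 were higher and 1 lower in EcTM, against 5.4% of all genes tested. One direction in 4 of 4 pairs was seen for 12 of the 67 (17.9%), against 14.1% of all genes. The same counts in DESeq2 and limma-voom with the replicate block were 12 each at an unadjusted p under 0.05, and both called 2 genes, among them Cd14. Without the block edgeR gave 2 and DESeq2 6 at an unadjusted p under 0.05, and neither called any. The lists were chosen with earlier results of these data known, so nothing particular to them is read from these shares. The same holds for the counts per list below. Their background is 5.4% of all genes tested at an unadjusted p under 0.05 and a median log2 fold change of -0.01. The share of all genes above 0 is not given here, so counts above 0 have no background.

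Among the MAF relatives of Maf, the small MAF proteins lack an activation domain of their own. Mafk had a log2 fold change of 0.10 ± 0.15 (SE), with 102.5 to 160.1 CPM over the 8 libraries. Maff had 0.26 ± 0.39 (SE), with 13.1 to 27.6 CPM over the 8 libraries. Both were higher in EcTM in 3 of 4 pairs, with overlapping groups. Without E591 and N591, Mafk and Maff were at -0.00076 and -0.004.

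Of the 13 ETS genes listed beside Spi1, 10 were tested, 8 of them above 0 at a median log2 fold change of 0.13, with 1 higher and 1 lower at an unadjusted p under 0.05. Ets2, which encodes a factor downstream of growth factor signalling, had 1017, 1221.5, 803.5 and 1076 CPM in EcTM, against 954, 1026, 787 and 915 CPM in non-EcTM, with a log2 fold change of 0.15 ± 0.071 and an unadjusted p of 0.0408 (adjusted 0.907). Gabpa encodes an ETS subunit that serves mitochondrial and housekeeping genes. It had 109.6, 115, 103 and 109.8 CPM in EcTM, against 128, 135, 136 and 139.6 CPM in non-EcTM. These are groups that did not overlap, lower in EcTM in 4 of 4 pairs. Its log2 fold change was -0.30 ± 0.15 with an unadjusted p of 0.0493 (adjusted 0.914). Fli1, a factor of blood and endothelium, had a log2 fold change of 0.11 ± 0.094 with all 4 pairs higher in EcTM, and was at 0.06 without E592 and N592.

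With Cebpa and Cebpb at 0, the C/EBP family is represented by Cebpd, Cebpg and Cebpz, and none reached an unadjusted p under 0.05. Cebpd, an acute phase factor, averaged 382 ± 44.4 CPM in EcTM, against 395 ± 60.4 CPM in non-EcTM (SD, n = 4 each), with a log2 fold change of -0.04 ± 0.096. Cebpg and Cebpz had log2 fold changes of -0.18 ± 0.12 and 0.34 ± 0.18. Of 8 interferon regulatory factors beside Irf8, 2 were tested. Irf2 and Irf1 had log2 fold changes of 0.07 ± 0.095 and -0.10 ± 0.24. Zeb1, the paralogue of Zeb2, averaged 25.6 ± 9.0 CPM in EcTM, against 29.2 ± 8.61 CPM in non-EcTM (SD, n = 4 each), with a log2 fold change of -0.21 ± 0.35. Cebpd, Irf1 and Zeb1 changed sign when 1 number was left out, at 0.05, 0.06 and 0.07 at most.

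Of 14 further KLF genes 8 were tested and 6 lay above 0, at a median log2 fold change of 0.10. Klf6, which encodes a factor of inflammatory macrophage activation, averaged 2599 ± 344 CPM in EcTM, against 2371 ± 102 CPM in non-EcTM (SD, n = 4 each). Its log2 fold change was 0.12 ± 0.057, with an unadjusted p of 0.0391 (adjusted 0.907) and 3 of 4 pairs higher in EcTM. Klf9 and Klf11 had log2 fold changes of 0.15 ± 0.13 and -0.36 ± 0.25, and Klf11 was at -0.04 without E604 and N604. With Runx1 and its partner Cbfb at 0, Runx3, a RUNX factor known from lymphocytes and some tissue macrophages, was the member of its family that could be tested. It had 506, 773, 292 and 341 CPM in EcTM, against 427, 472, 306 and 274 CPM in non-EcTM, so that it varied widely inside both groups. Its log2 fold change was 0.31 ± 0.11, with an unadjusted p of 0.00749 (adjusted 0.751) and 3 of 4 pairs higher in EcTM. Without E592 and N592 it was 0.17, with an unadjusted p of 0.154, and with no replicate block the unadjusted p was 0.151.

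Of 40 other regulators 18 were tested, 10 of them above 0 at a median of 0.03, with 2 at an unadjusted p under 0.05. Bcl6, a repressor of inflammatory genes, had 205, 256, 159 and 186 CPM in EcTM, against 147, 163, 128 and 177 CPM in non-EcTM. The value was the higher one in EcTM in every pair, with overlapping groups, and its log2 fold change was 0.38 ± 0.13 with an unadjusted p of 0.00776 (adjusted 0.751). Rel, an NF-kB subunit, had a log2 fold change of 0.27 ± 0.11 with an unadjusted p of 0.0271 (adjusted 0.897). Rxra, the shared partner of the nuclear receptors, had the largest log2 fold change of the list, 1.03 ± 0.60, on 18.4 ± 16.8 CPM in EcTM, against 6.79 ± 3.67 CPM in non-EcTM (SD, n = 4 each), and its unadjusted p was 0.0958. Leaving out 1 number moved it between 0.55 (without E591 and N591) and 1.55 (without E606 and N606).

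**Figure D4:**
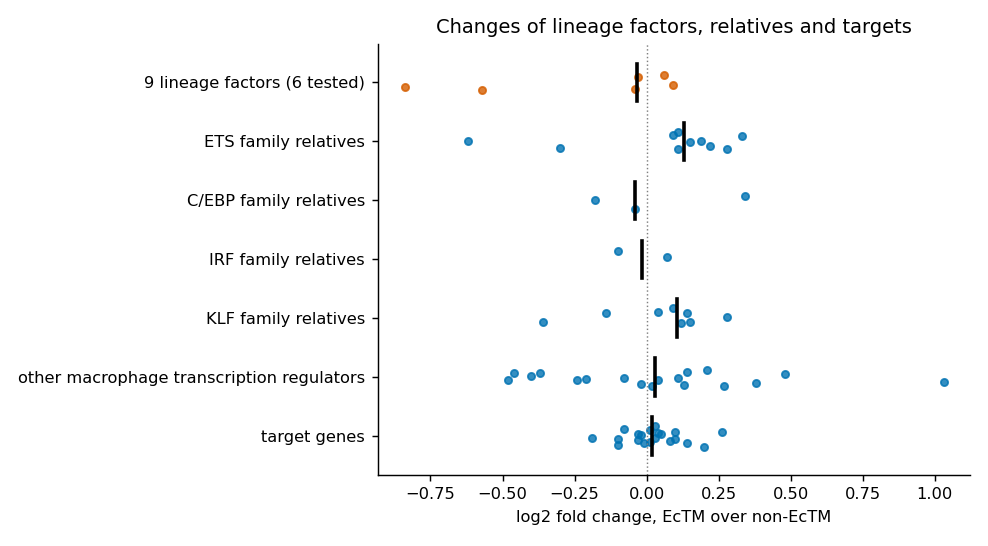
Each point is the log2 fold change of EcTM over non-EcTM of 1 tested gene, by list, with the lineage factors in orange at the top and a black bar at each list's median. The medians of the lists drawn lie between -0.04 and 0.13. The lists of MAF, ZEB and RUNX relatives, with medians of 0.15, -0.21 and 0.31 over 4, 1 and 1 tested genes, are not drawn.

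Target genes of these factors in macrophages were read last. Of 25 listed genes 20 were tested, with 12 above 0 at a median log2 fold change of 0.02, and 3 reached an unadjusted p under 0.05, all higher in EcTM. Csf1r, the colony stimulating factor receptor driven by PU.1 and RUNX1, had 5789.7, 5863, 5934 and 6281 CPM in EcTM, against 5671, 5443, 5840.4 and 5375 CPM in non-EcTM. Its 4 pairs all went one way and the groups overlapped at 1 library, with a log2 fold change of 0.10 ± 0.043 and an unadjusted p of 0.0344 (adjusted 0.905). Without E606 and N606 it was 0.05, with an unadjusted p of 0.298.

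Cd14, the lipopolysaccharide co-receptor and a C/EBP target, had 2323, 1743, 1415 and 2084 CPM in EcTM, against 1670.0, 1603.5, 1239 and 1743 CPM in non-EcTM. All 4 pairs were higher in EcTM, with a log2 fold change of 0.26 ± 0.063, an unadjusted p of 0.000361 and an adjusted p of 0.277. Its adjusted p was 0.00455 in paired DESeq2 and 0.000912 in limma-voom, and between 0.0564 and 0.998 in the other settings. Cybb, the oxidase subunit gene activated by PU.1 and IRF8, had a log2 fold change of 0.14 ± 0.062 with an unadjusted p of 0.0303 (adjusted 0.897) and 4 of 4 pairs higher in EcTM. The macrophage marker sum, which includes Csf1r and Cd14, and the immediate-early sum given above were also higher in EcTM in 4 of 4 pairs. Of 16 tested immediate-early genes, 6 were higher at an unadjusted p under 0.05, against 5.4% of all genes in both directions. The part of macrophage markers and immediate-early genes in the values of Csf1r, Cybb, Bcl6, Rel and Cd14 was not tested.

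**Figure D5:**
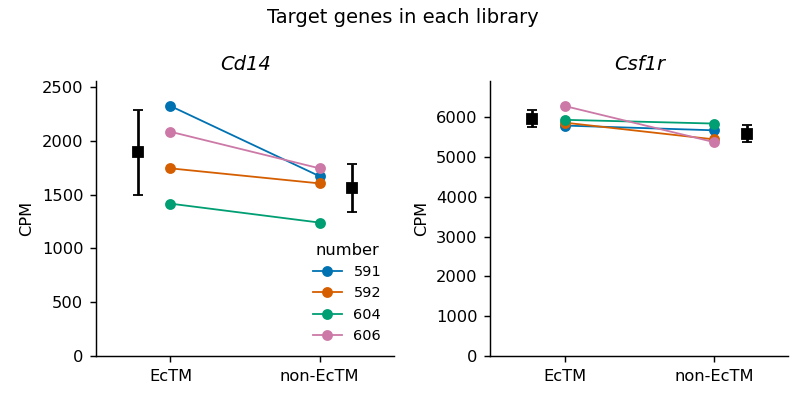
The CPM of Cd14 and Csf1r in every library is plotted, EcTM left and non-EcTM right, with lines that join libraries of 1 number and black squares with bars for the group mean and SD (n = 4). All 8 lines run higher at EcTM, and the groups overlap in both panels.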

How the data were processed

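Per the labels' protocols, cells were sorted by FACS, and their RNA was purified on micro columns and turned into strand-preserving libraries with a low-input kit. The authors used bcl2fastq 2.17, TopHat, DESeq2 and R 3.2 with mm10, per the submitters' processing notes; how reads were counted, over which annotation and by which strand, is not given in the sources used here. As files the authors deposited raw counts per gene and log2 values. The deposited log2 values of 14319 counted genes agreed to within 0.00881 with DESeq2's regularised log with number and group in the design. All results here come from the counts.

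The 9 genes and all gene lists were chosen with earlier results of these data known. The pairing by number was read from the titles and checked in the counts. After removal of group means, libraries of the same number correlated at 0.122 to 0.186 across genes, and the others at -0.127 to 0.0532, so the number was kept as a replicate block. Counts were fitted in edgeR 4.0.16 (R 4.3.3) with TMM scaling, filterByExpr, the replicate block and the quasi-likelihood F-test, and p-values are two-sided, with Benjamini-Hochberg adjustment at a threshold of 0.05. The filter left 7667 genes with 99.3% of the counts, and the biological coefficient of variation was 0.304. CPM are counts divided by the scaled library size. SEs are from the F statistic, and 95% intervals and floors cover these libraries and counting error only. Alternatives were other scalings, filters and tools (DESeq2 1.42.0; limma-voom, limma 3.58.1), no replicate block, genes with 1 curated transcript, and each number left out. The fits were tested on simulated data. RefSeq (GRCm38.p6, the assembly that mm10 names) matched 24447 of the 24516 genes and gave coordinates, transcript numbers and promoters, the last for 7 of the 9 genes. All 9 are named, and from each list up to 3 tested genes with the smallest unadjusted p. Some genes that this rule names are not reported here. Other genes were chosen after their values were seen. Figures used matplotlib 3.10.9 in Python 3.11.15.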

Additional observations from a re-analysis of the deposited data

Results flagged for a closer look

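In 3 of 56 groups of 4 libraries checked, 1 library lay far from the other 3, and chance gives about 1 in 20 such groups. Klf2 had 3855 CPM in the EcTM library E591, against 2560.1 to 2737 CPM in the other EcTM libraries. In non-EcTM the library of the same number was also the highest. Fli1 had 445.5 CPM in the EcTM library E592, against 352 to 364 CPM in the other EcTM libraries. Irf1 had 59.9 CPM in the EcTM library E592, against 39.9 to 42.4 CPM in the other EcTM libraries.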

How the results depend on the processing

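None of the 6 tested factors was called in the edgeR fit or in any of the 13 alternatives that tested it. Maf, Klf2 and Klf4 were tested in all 13, Spi1 and Irf8 in 12 and Zeb2 in 11. In paired DESeq2, Irf8 and Zeb2 had a fold change but no adjusted p, so they could not be called there. Over these, the log2 fold change of Maf ran between 0.02 and 0.11, Klf2 between 0.07 and 0.13, and Irf8 between -0.96 and -0.32. Of 352 values of the 28 named genes under an alternative, 340 kept their direction and their side of the threshold. Among the 340 are the values of Irf8, Zeb2, Maff, Rxra and Zeb1 in paired DESeq2. These had no adjusted p and could not have passed. The 4 that passed it came from paired DESeq2 and limma-voom, which each called 2 listed genes, among them Cd14. Signs turned only when a number was left out. Over the numbers left out, Spi1 ran between -0.12 and 0.03, Klf4 between -0.07 and 0.04, Cebpd between -0.10 and 0.05, Irf1 between -0.23 and 0.06, Maff between -0.004 and 0.54, Mafk between -0.00076 and 0.18, and Zeb1 between -0.51 and 0.07. The cause was not tested.

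Over all genes, 1 was called with the replicate block and 0 without the replicate block in edgeR (257 at an unadjusted p under 0.05). Paired DESeq2 called 24 and limma-voom 19. DESeq2 without the block called 0, with 457 at an unadjusted p under 0.05. Without a filter edgeR called 10, over genes with 1 curated transcript 0, and with each number left out 1 to 2. The block changed no call of the 6 tested factors. Irf8 and Zeb2 had at most 45 counts in a library, which limits their precision, and Cebpa, Cebpb and Runx1 gave no value.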
